A study of Mus musculus with 6 samples.

Results

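Kruppel-like factors (KLFs) are transcription factors that share conserved zinc fingers at the C terminus and bind CACCC boxes and GC-rich sequences, while their N-terminal parts differ and recruit either coactivators or corepressors. In macrophages, KLF2 and KLF4 are best known as brakes on inflammatory gene expression, KLF4 also for monocyte differentiation and alternative activation, and KLF6 as a factor that favors inflammatory gene expression. The 10 KLF genes described here, Klf2, Klf3, Klf4, Klf6, Klf7, Klf9, Klf10, Klf11, Klf13 and Klf16, were chosen by symbol, out of 54532 genes listed, and their values were taken from all libraries. All 10 reached the minimum level for the test, as did 12755 genes in all.

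The libraries came from bone-marrow-derived macrophages (BMDMs) of wildtype C57BL/6 mice, grown in medium conditioned by L929 cells. There were 3 groups of 2 libraries, which were untreated, stimulated with LPS, the Gram-negative bacterial endotoxin (100 ng/ml for 2 h), or pretreated with metformin, an inhibitor of mitochondrial complex I that activates AMPK (5 mM for 6 h), before the same LPS stimulation (Met + LPS). No group received metformin alone, so metformin is compared only in the presence of LPS. Nothing in the labels says whether the 2 libraries of a group came from separate mice. The study states that the BMDMs for RNA-seq were seeded in duplicate and does not mention separate mice. The p-values therefore measure the spread between libraries, which may be technical.

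Levels are given as TPM (a count of transcripts normalized to gene length and library total), as the authors deposited it. Reads recovered from the TPM values summed to 25457020 to 30762763 per library. Each KLF value rested on 37 to 20038 reads, with the fewest for Klf11 after LPS. Macrophage markers were strongly expressed, with all 7 at 12.9 TPM or more in every library. Their sum ranged from 43700 to 45600 TPM in untreated BMDMs, 34500 to 35300 TPM in LPS and 28800 to 28900 TPM in Met + LPS. Most of it was Lyz2, at 34000 and 35800, 27000 and 26700, and 21200 and 21400 TPM in this order. Between untreated and LPS libraries, Adgre1 was higher in LPS, Fcgr1 overlapped and the other markers were lower. Between LPS and Met + LPS, Cd68 overlapped (4970 and 4580 against 4770 and 4800 TPM) and the other markers were lower in Met + LPS. The T-cell markers Cd3d and Cd3e, the neutrophil marker Ly6g and the endothelial marker Cdh5 were each below 0.3 TPM in every library. Other genes of these lists were higher, with Cd4 at 2.66 to 6.78 TPM and Kdr, which was listed with Cdh5, at 21 and 23.3 TPM in LPS and 33.7 and 32.1 TPM in Met + LPS. The 6 neutrophil markers together summed to 29.4 and 32.6 TPM in untreated BMDMs, 26.3 and 27.6 TPM in LPS and 42.8 and 45.2 TPM in Met + LPS. The part of the macrophage markers, the neutrophil markers and Kdr in the differences between LPS and Met + LPS was not tested. In bulk RNA, fewer cells of a type and less RNA per cell cannot be told apart.

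Changes were tested with limma on log2(TPM + 1) over all 12755 genes, with Benjamini-Hochberg adjustment, and SE stands for the error of a log2 fold change in that fit. A gene is said to rise or fall at an adjusted p-value under 0.01. The larger changes also passed the study's cut-offs on the absolute log2 fold change, 2 when LPS was compared with untreated BMDMs and 0.7 when Met + LPS was compared with LPS. The study applied these cut-offs to fold changes from DESeq2, a test on counts. Here they are applied to log2(TPM + 1), so the measure differs. On this scale the change of genes with few TPM is understated. The median over the tested genes was -0.48 on the log2 scale for LPS against untreated BMDMs and -0.03 for Met + LPS against LPS. Values against untreated BMDMs are therefore given where needed also after dividing each library by its median ratio to the geometric mean over libraries (rescaling), which brings the median of LPS vs. untreated to -0.01.

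The largest change was the rise of Klf7 with LPS (log2 fold change 3.23). Klf2 and Klf4 moved in opposite directions in both comparisons, and Klf9 and Klf11 moved as Klf4 did. The promoter sequences of these 4 genes upstream of the RefSeq transcription start are shown because they are the members that carry this contrast. They are RefSeq sequences of GRCm38.p6, printed 5′ to 3′ on the strand of the gene, without bases inside the gene's own GENCODE span. They lie at chr8:72318812-72319032 (plus strand) for Klf2, chr4:55532476-55532725 (minus strand) for Klf4, chr19:23140976-23141225 (plus strand) for Klf9 and chr12:24651121-24651273 (plus strand) for Klf11. Capitals mark matches, on either strand, to TGACG (the core of the cAMP response element), TGANTCA (a loose form of the AP-1 site) and CTANNNNTA (a loose form of the MEF2 site). N stands for any base, so a match to these loose forms need not be a usual site of either factor. The Klf9 matches TGAATCA and TAGTTCTAG are not usual sites.
Klf2: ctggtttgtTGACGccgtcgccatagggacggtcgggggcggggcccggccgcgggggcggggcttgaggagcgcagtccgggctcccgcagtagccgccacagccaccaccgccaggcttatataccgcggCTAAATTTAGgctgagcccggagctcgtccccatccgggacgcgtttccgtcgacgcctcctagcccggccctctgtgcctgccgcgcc
Klf4: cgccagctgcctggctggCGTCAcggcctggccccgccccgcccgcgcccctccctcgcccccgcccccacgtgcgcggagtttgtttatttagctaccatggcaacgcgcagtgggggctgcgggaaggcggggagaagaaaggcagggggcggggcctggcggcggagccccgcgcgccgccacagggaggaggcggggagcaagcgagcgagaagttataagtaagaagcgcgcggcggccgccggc
Klf9: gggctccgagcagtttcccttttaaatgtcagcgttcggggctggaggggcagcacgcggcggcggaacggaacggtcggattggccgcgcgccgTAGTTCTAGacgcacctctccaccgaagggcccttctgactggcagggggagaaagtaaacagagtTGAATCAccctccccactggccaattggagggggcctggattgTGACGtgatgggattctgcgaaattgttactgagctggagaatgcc
Klf11: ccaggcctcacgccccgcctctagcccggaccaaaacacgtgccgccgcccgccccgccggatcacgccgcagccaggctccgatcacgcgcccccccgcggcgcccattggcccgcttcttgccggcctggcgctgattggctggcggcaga

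The CTANNNNTA match of Klf2 lay 118 to 109 bases before the start, and that of Klf9 155 to 147 bases before it, where the run of Klf2 joins a pair of overlapping matches. Over all 32851 RefSeq promoter windows of 300 bases (250 before to 50 after a start), 21% held this motif, 20.8% held TGACG and 7.81% held TGANTCA, with overlapping matches on the 2 strands counted once. Of the 8 KLF genes with a promoter entry, 2 held CTANNNNTA, 5 held TGACG and 1 held TGANTCA. The CACCC box that KLF proteins themselves bind was found in 5 of the 8 windows, against 57.5% of all windows, and the GC box GGGCGG in 7 of the 8, against 35.7%. The NF-kappaB motif GGGANTTTC was in none of the 8 and in 1.11% of all windows. The GC content of the 4 windows was 69.3% for Klf2, 74.3% for Klf4, 63.3% for Klf9 and 77.7% for Klf11, above the median of 52.7% over all windows. A match describes the letters only. Klf10 and Klf16 had no entry. The windows counted here include bases inside a gene's own GENCODE span, and the window of Klf7 lies wholly inside that span.

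Klf4 (ENSMUSG00000003032, chromosome 4, 55527143 to 55532466) was at 15.1 and 16.4 TPM in the untreated libraries, 6.03 and 6.56 TPM in the LPS libraries and 23.7 and 20.5 TPM in the Met + LPS libraries. The LPS libraries were the lowest and the Met + LPS libraries the highest, with no overlap between any 2 groups. LPS reduced Klf4 (log2 fold change -1.2, SE 0.087, adjusted p = 2.0e-05 by limma), and the value was -0.72 after rescaling (adjusted p = 3.7e-04 by limma). After metformin pretreatment Klf4 was 3.51-fold higher than in LPS alone, a log2 fold change of 1.66 (SE 0.087, adjusted p = 3.2e-05 by limma), which is the largest metformin difference among the 10 genes. Klf4 in Met + LPS was also above the untreated level, with a log2 fold change of 0.46 (95% interval 0.25 to 0.67, adjusted p = 0.00213 by limma), and after rescaling this was 0.97. This last call was lost without either untreated library (0.40 and 0.52, adjusted p = 0.026 and 0.0113 by limma) and without Met + LPS replicate 1 (0.36, adjusted p = 0.0132 by limma).

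Klf2 (ENSMUSG00000055148, chromosome 8, 72319033 to 72321656) moved in the opposite direction to Klf4 both with LPS and in Met + LPS against LPS. Its level was 30.3 and 29.1 TPM in untreated BMDMs, 37.2 and 37.4 TPM in LPS and 25.5 and 24.2 TPM in Met + LPS. The LPS libraries were the highest and the Met + LPS libraries the lowest, again without overlap. Klf2 rose with LPS by a log2 fold change of 0.32 (SE 0.047, adjusted p = 6.4e-04 by limma), or 0.83 after rescaling (adjusted p = 9.3e-06 by limma). It was lower in Met + LPS than in LPS by a log2 fold change of -0.57 (SE 0.047, adjusted p = 1.8e-04 by limma), short of the cut-off of 0.7. Whether Klf2 in Met + LPS was below or above untreated BMDMs depended on the scaling. It was -0.25 in TPM as deposited (adjusted p = 0.00226 by limma) and 0.27 after rescaling (adjusted p = 0.00197 by limma). In the same fit as deposited, the call was lost without either untreated library and without Met + LPS replicate 2, with values of -0.22, -0.28 and -0.21.

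**Figure D1:**
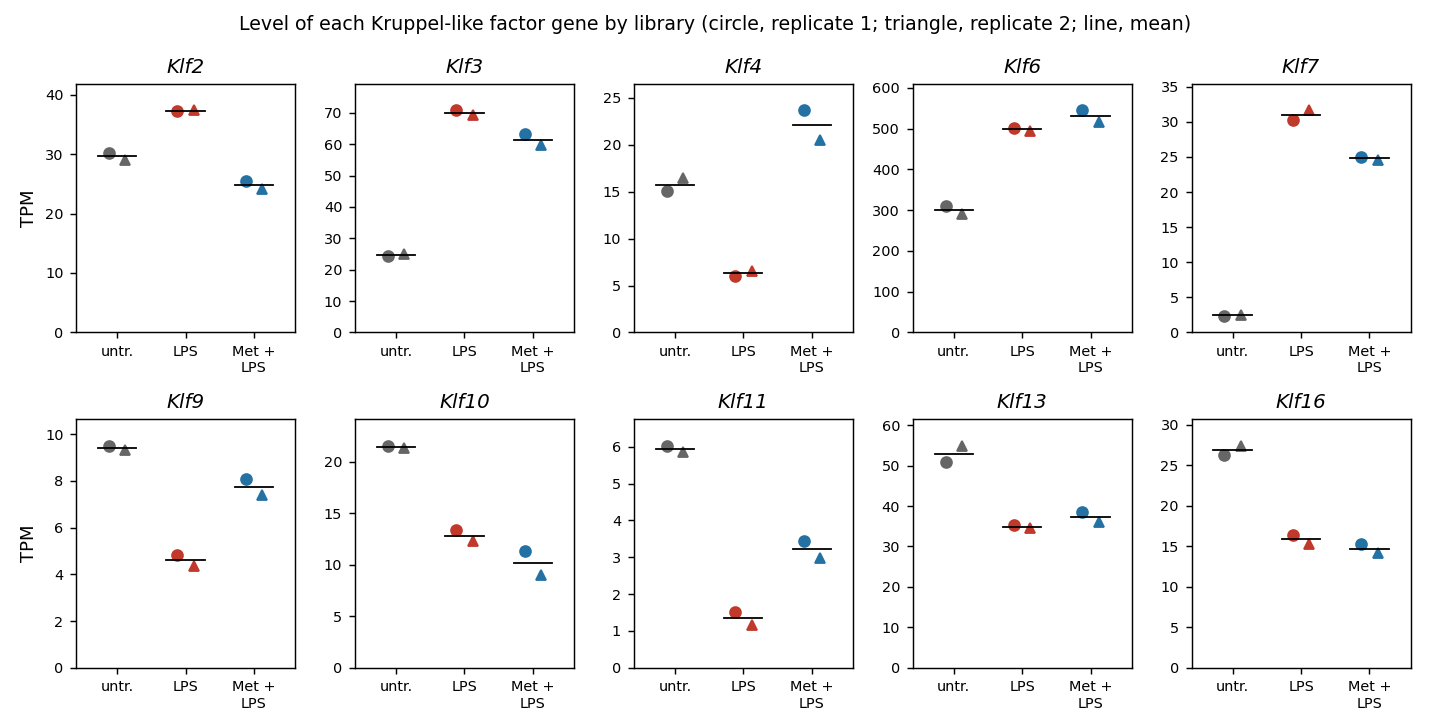
TPM of each KLF gene (vertical axes, linear and starting at 0, scaled per gene) in the 2 libraries of the untreated, LPS and Met + LPS groups, with circles for replicate 1, triangles for replicate 2 and lines for the group means. Klf4, Klf9 and Klf11 dipped in LPS and were higher in Met + LPS, Klf2 peaked in LPS, and Klf7 went from 2.33 and 2.51 TPM to 30.3 and 31.6 TPM with LPS.

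Klf9 and Klf11 belong to the branch of the family whose proteins recruit the SIN3 corepressor, and KLF9 is also a glucocorticoid-induced gene. Klf9 (ENSMUSG00000033863, chromosome 19, 23141226 to 23166911) was at 9.51 and 9.33 TPM in untreated BMDMs, 4.83 and 4.37 TPM in LPS and 8.07 and 7.41 TPM in Met + LPS. The LPS mean was 0.488 of the untreated mean, and the Met + LPS libraries lay between the other groups. The log2 fold change with LPS was -0.90 as deposited (adjusted p = 4.5e-05 by limma) and -0.44 after rescaling (adjusted p = 0.00222 by limma). It was 0.64 for Met + LPS vs. LPS (SE 0.077, adjusted p = 8.2e-04 by limma). Against untreated BMDMs, Klf9 in Met + LPS did not pass the test, at -0.25 as deposited (95% interval -0.44 to -0.07, adjusted p = 0.019 by limma) and at 0.23 after rescaling (adjusted p = 0.0327 by limma).

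Klf11 (ENSMUSG00000020653, chromosome 12, 24651274 to 24662789), which is induced by TGF-beta in other cells, was the member that LPS reduced the most. It was at 6.03 and 5.85 TPM in untreated BMDMs, 1.51 and 1.17 TPM in LPS and 3.44 and 2.99 TPM in Met + LPS. The untreated mean was 4.43-fold the LPS mean. The log2 fold change with LPS was -1.57 (SE 0.11, adjusted p = 2.0e-05 by limma), and voom on recovered reads, which adds no 1 TPM, gave -2.12. In Met + LPS, Klf11 was higher than in LPS by 0.85 on the log2 scale (adjusted p = 0.00124 by limma), and this rested on 50 and 37 reads in LPS against 113 and 115 in Met + LPS. Without Met + LPS replicate 1 the value was 0.77 and the call was lost (adjusted p = 0.0109 by limma). Against untreated BMDMs, Klf11 in Met + LPS stood at -0.72 as deposited (adjusted p = 9.0e-04 by limma) and at -0.28 after rescaling (adjusted p = 0.065 by limma), and the call as deposited was lost without untreated replicate 1 (-0.70, adjusted p = 0.0113 by limma).

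Klf7, Klf3 and Klf6 rose with LPS. Klf7 (ENSMUSG00000025959, chromosome 1, 64029447 to 64122282), studied mostly in neurons, had the lowest level of the 10 genes in untreated BMDMs. It was at 2.33 and 2.51 TPM in untreated BMDMs, 30.3 and 31.6 TPM in LPS and 25.0 and 24.5 TPM in Met + LPS. The LPS mean was 12.8-fold the untreated mean, with a log2 fold change of 3.23 (SE 0.057, adjusted p = 3.9e-08 by limma). In this fit Klf7 was the only member past the cut-off of 2, which 6.08% of all tested genes passed. The Met + LPS libraries were below the LPS libraries with a difference of -0.31 on the log2 scale (adjusted p = 0.00487 by limma), a call that was lost when any of the 6 libraries was left out (-0.34 to -0.28) or no filter on low values was used (adjusted p = 0.013 by limma). Of the exon bases of Klf7, 39.4% overlap the opposite-strand genes Gm13748 and Gm26649, which were both listed at 0 in every library. Whether the authors' counting used strand is not given in the sources used here, so reads in this stretch may not all be assigned to Klf7.

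Klf3 (ENSMUSG00000029178, chromosome 5, 64803388 to 64832901) encodes a repressor that works through the corepressor CtBP. It was at 24.4 and 25.0 TPM in untreated BMDMs, 70.8 and 69.2 TPM in LPS and 63.1 and 59.8 TPM in Met + LPS. The rise with LPS was 2.83-fold between the means, a log2 fold change of 1.47 (SE 0.043, adjusted p = 3.7e-07 by limma). After rescaling it was 1.97, and voom with median-ratio scaling gave 2.03, past the cut-off of 2. Both Met + LPS libraries were below both LPS libraries, with a log2 fold change of -0.19 (95% interval -0.29 to -0.08) that missed the threshold (adjusted p = 0.0128 by limma) and passed it with a minimum of 5 TPM (adjusted p = 0.00848 by limma) and with voom (adjusted p = 3.7e-04). Of its exon bases, 3.6% overlap the opposite-strand gene Gm20033, which was at 0.439 TPM or less.

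Klf6 (ENSMUSG00000000078, chromosome 13, 5861482 to 5870394) was by far the most abundant member. It was at 309 and 291 TPM in untreated BMDMs, 502 and 495 TPM in LPS and 545 and 516 TPM in Met + LPS. LPS raised it by a log2 fold change of 0.73 (SE 0.043, adjusted p = 7.8e-06 by limma), or 1.26 after rescaling. The difference between Met + LPS and LPS was 0.09 on the log2 scale (95% interval -0.01 to 0.19, adjusted p = 0.135 by limma).

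**Figure D2:**
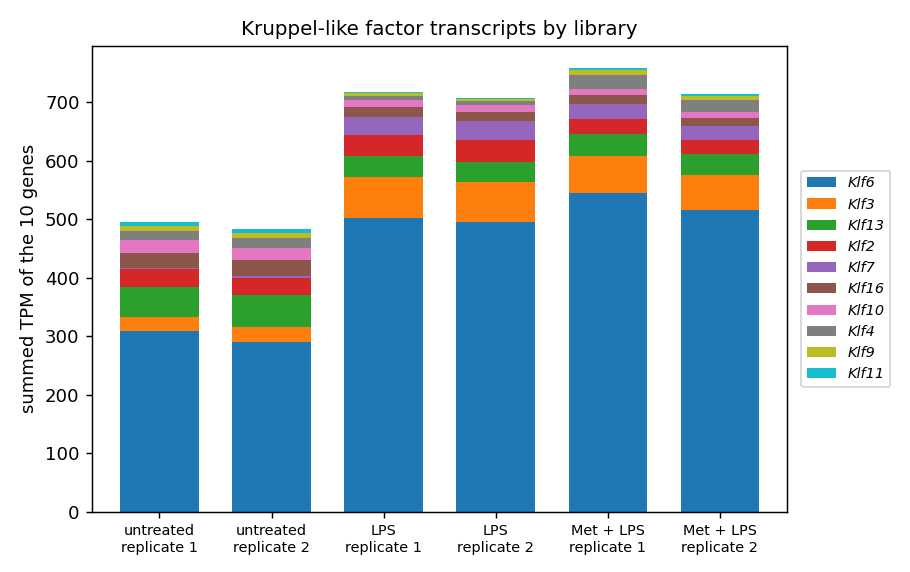
Summed TPM of the 10 KLF genes (vertical axis, starting at 0) in each of the 6 libraries (horizontal axis), with one color per gene stacked from the most to the least abundant. Klf6 made up 60.3% to 72.2% of the sum in every library, and the sum was 483 to 495 TPM in untreated BMDMs and 707 to 759 TPM in the libraries given LPS.

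The sum over the 10 genes was 495 and 483 TPM in untreated BMDMs, 717 and 707 TPM in LPS and 759 and 714 TPM in Met + LPS. Klf6 accounted for 62.4% and 60.3%, 70.0% and 69.9%, and 71.8% and 72.2% of it in the same order of groups. Below Klf6 the order of the members changed between groups. In untreated BMDMs Klf13, Klf2, Klf16, Klf3, Klf10, Klf4, Klf9, Klf11 and Klf7 followed, and the libraries of neighbors in this order did not overlap. In LPS, Klf3 took the second place and Klf7 moved from the last place to the fifth, between Klf13 and Klf16, again with no overlap between neighbors. In Met + LPS, Klf2 (25.5 and 24.2 TPM) and Klf7 (25.0 and 24.5 TPM) overlapped, and Klf4 ranked above Klf16, Klf10, Klf9 and Klf11. TPM is per length, so these ranks compare transcripts, and they depend on the length used. That length matched the exon union for each member except Klf9, where it was the transcript length in the file. The place of Klf7 also depends on how reads in its overlapping stretch were assigned.

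Klf10, Klf13 and Klf16 were lower after LPS in TPM as deposited and did not pass the test after rescaling. Klf10 (ENSMUSG00000037465, chromosome 15, 38291463 to 38300706), a TGF-beta-inducible repressor, was at 21.6 and 21.3 TPM in untreated BMDMs, 13.4 and 12.3 TPM in LPS and 11.3 and 9.0 TPM in Met + LPS. Klf13 (ENSMUSG00000052040, chromosome 7, 63886351 to 63938915), known as an activator of the chemokine gene for RANTES in T cells, was at 50.9 and 54.9 TPM in untreated BMDMs, 35.2 and 34.7 TPM in LPS and 38.6 and 36.0 TPM in Met + LPS. Klf16 (ENSMUSG00000035397, chromosome 10, 80567124 to 80577321), a repressor that competes for GC-rich sites, was at 26.3 and 27.4 TPM in untreated BMDMs, 16.4 and 15.3 TPM in LPS and 15.2 and 14.2 TPM in Met + LPS. In each gene the untreated libraries were the highest.

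The log2 fold changes with LPS were -0.70 for Klf10, -0.59 for Klf13 and -0.73 for Klf16, with adjusted p-values by limma of 5.9e-04, 6.9e-05 and 3.9e-05. After rescaling they were -0.20, -0.07 and -0.22, and none passed the test (adjusted p = 0.118, 0.279 and 0.014 by limma). The Klf10 call was also lost without untreated replicate 1 (-0.69, adjusted p = 0.0101 by limma). None of these 3 genes passed the test between Met + LPS and LPS. Klf13 had a log2 fold change of 0.09 (95% interval -0.04 to 0.22) and Klf16 of -0.10 (-0.25 to 0.04). For Klf10 the value of -0.32 (-0.56 to -0.07, adjusted p = 0.0404 by limma) passed with voom (adjusted p = 0.00375) and without Met + LPS replicate 1 (-0.47, adjusted p = 0.00759 by limma).

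**Figure D3:**
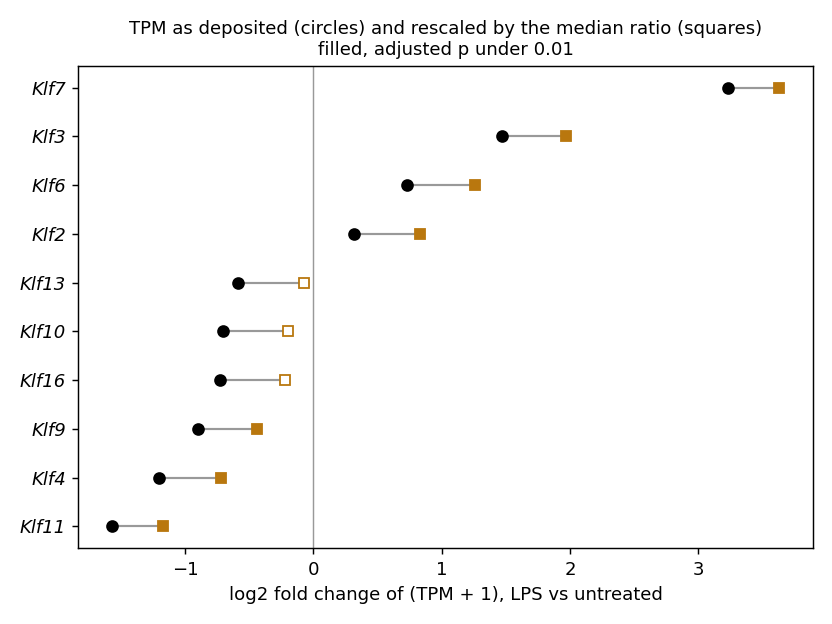
Log2 fold change of (TPM + 1) between LPS and untreated BMDMs (horizontal axis) for the 10 KLF genes (vertical axis), with circles for TPM as deposited and squares after rescaling by the median ratio, filled where the adjusted p-value by limma was under 0.01. The squares of Klf10, Klf13 and Klf16 lie close to 0 and are open, whereas those of Klf4, Klf9 and Klf11 stay below 0 and filled.

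Counted together, 4 of the 10 KLF genes rose with LPS (Klf2, Klf3, Klf6 and Klf7) and 6 fell. Over all tested genes, 16.2% rose and 60.1% fell. After rescaling 4 rose and 3 fell, against 30.6% and 27.6% of all genes. The median log2 fold change of the 10 genes was -0.64, beside -0.48 over all tested genes. With the fold-change cut-off, 1 of the 10 passed, against 6.08% of all genes. With voom on recovered reads Klf11 also reached the cut-off, making 2 of 10 against 12.5% of all genes.

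Between Met + LPS and LPS, 3 KLF genes were higher (Klf4, Klf9 and Klf11), 2 were lower (Klf2 and Klf7) and 5 did not pass. Over all tested genes 14.5% were higher and 18% lower. The median of the 10 genes was -0.01, beside -0.03 over all tested genes. With the cut-off of 0.7, Klf4 and Klf11 passed, 2 of 10 against 8.28% of all genes. Klf9 also passed with 0.1 instead of 1 TPM added (0.74, adjusted p = 0.00102 by limma) and with voom (0.75, adjusted p = 6.0e-06). With voom and median-ratio scaling it passed too (0.76, adjusted p = 4.1e-06). The shares of all tested genes past 0.7 in these fits are not given here. Klf11 was at 0.77 without Met + LPS replicate 1, and Klf9 at 0.7 without LPS replicate 1. The libraries of the 2 groups did not overlap for any of the 10 genes, and they did not overlap for 73.8% of all tested genes. The same held for all 10 genes in both comparisons with untreated BMDMs, against 91.6% of all tested genes for LPS and 90.7% for Met + LPS.

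**Figure D4:**
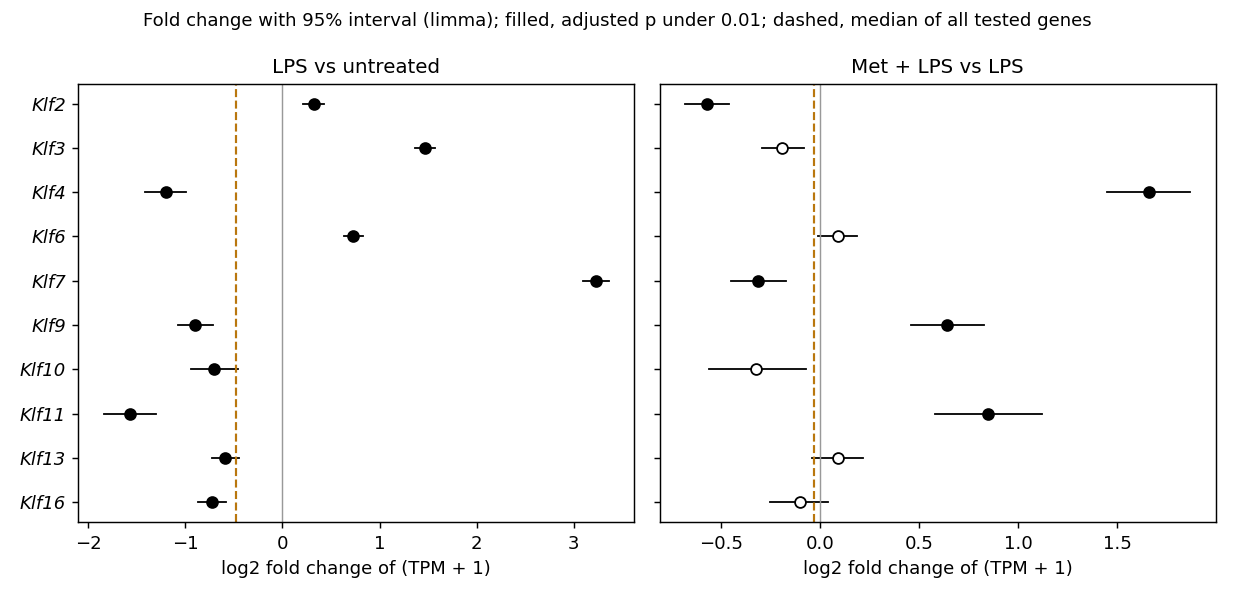
Log2 fold change of (TPM + 1) with its 95% interval from limma (horizontal axes) for each KLF gene (vertical axis), with LPS vs. untreated on the left and Met + LPS vs. LPS on the right, filled where the adjusted p-value was under 0.01, with a dashed line at the median of all tested genes (-0.48 and -0.03). Klf4 lies farthest to the right in the metformin comparison at 1.66, and Klf2 farthest to the left at -0.57.

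Set side by side, the 3 comparisons share libraries, so each gives its own values and their signs are not independent. Relative to untreated BMDMs, Met + LPS left Klf7 (log2 fold change 2.92), Klf3 (1.28), Klf6 (0.82) and Klf4 (0.46) higher and Klf10 (-1.02), Klf16 (-0.83), Klf11 (-0.72), Klf13 (-0.49) and Klf2 (-0.25) lower in TPM as deposited, with 16.3% of all tested genes higher and 58.8% lower. After rescaling 5 members were higher and 2, Klf10 and Klf16, were lower, against 33.4% and 29.7% of all tested genes, and Klf2 was then among the higher ones.

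Of the 7 other KLF genes, 2 reached the minimum level. Klf8, which encodes another CtBP-binding repressor, rose with LPS from 6.57 and 7.94 TPM to 27.9 and 27.9 TPM, or by 1.81 on the log2 scale (adjusted p = 2.6e-06 by limma), and was at 27.5 and 28.7 TPM in Met + LPS, where the difference of 0.01 did not pass the test (adjusted p = 0.945 by limma). Klf5, best known in epithelial and smooth muscle cells, was at 0.0253 and 0.0268 TPM in untreated BMDMs, 2.15 and 2.61 TPM in LPS and 1.65 and 1.02 TPM in Met + LPS. It reached the minimum level only through libraries given LPS, so its difference from untreated BMDMs is a description. Between Met + LPS and LPS it did not pass the test (adjusted p = 0.0429 by limma). The erythroid factor Klf1 stayed at 0.365 TPM or less, and Klf14 and Klf17 were listed at 0 in all libraries.

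The Sp factors are the closest relatives of the KLFs and bind the same GC boxes. Of 9, 4 were tested. Sp3, Sp1 and Sp4 fell with LPS, with log2 fold changes of -1.54, -0.53 and -0.47 (adjusted p = 4.3e-07, 7.6e-05 and 8.7e-04 by limma), where 60.1% of all tested genes fell. After rescaling 1 of the 4 was lower and 1 was higher, against 27.6% and 30.6% of all tested genes. Sp4 and Sp1 were higher in Met + LPS than in LPS by 0.76 and 0.24 (adjusted p = 3.1e-04 and 0.00872 by limma), where 14.5% of all tested genes were higher.

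The kinase ERK5 (Mapk7), its activator MEK5 (Map2k5) and the MEF2 factors form the route known to induce Klf2 and Klf4 in endothelium, and FOXO1 is known to induce Klf2 in T cells. All 6 genes of this list fell with LPS, with a median log2 fold change of -0.74, against 60.1% of all tested genes, and 3 of the 6 fell after rescaling, against 27.6%. Mef2d went from 73.0 and 74.7 TPM to 21.2 and 20.9 TPM and Mapk7 from 36.5 and 38.7 TPM to 8.82 and 8.79 TPM, log2 fold changes of -1.76 and -1.98 (adjusted p = 5.7e-07 and 9.2e-07 by limma). In Met + LPS, Mef2d was at 38.4 and 34.4 TPM and Mapk7 at 14.1 and 16.1 TPM, higher than in LPS by 0.76 and 0.71 (adjusted p = 1.2e-04 and 3.7e-04 by limma). Mef2a was also higher, by 0.45 (adjusted p = 8.6e-04 by limma), whereas Mef2c was lower, by -0.37 (adjusted p = 0.00259 by limma), and 2 of the 6 did not pass. Over all tested genes 14.5% were higher and 18% lower in this comparison.

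All 10 cofactor genes on the list, which encode CtBP, SIN3, histone deacetylases and acetyltransferases, were tested. With LPS 7 fell and 2 rose (Hdac1 and Hdac2), against 60.1% and 16.2% of all tested genes, and the median was -0.37. After rescaling 2 were lower and 4 higher, against 27.6% and 30.6%. Ep300, Ctbp1 and Sin3a had log2 fold changes of -0.99, -0.61 and -0.73 (adjusted p = 3.3e-06, 5.1e-06 and 1.2e-05 by limma). In Met + LPS 6 of the 10 were lower than in LPS and none was higher, against 18% and 14.5% of all tested genes. Kat2b, Ep300 and Hdac1 had log2 fold changes of -0.66, -0.39 and -0.36 (adjusted p = 2.2e-04, 9.0e-04 and 0.00128 by limma).

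Among 11 genes that Klf2 or Klf4 is known to control in other cells or settings, 7 were tested. S1pr1, a sphingosine-1-phosphate receptor, and Thbd (thrombomodulin) fell with LPS by log2 fold changes of -2.01 and -2.40 (adjusted p = 1.5e-07 and 1.5e-06 by limma). F3 (tissue factor) was at 0.989 and 0.773 TPM in untreated BMDMs, 15.4 and 17.2 TPM in LPS and 16.1 and 11 TPM in Met + LPS. In all, 3 of the 7 fell with LPS, against 60.1% of all tested genes, and 2 after rescaling, against 27.6%. The 2 called higher as deposited, F3 and Chil3, reached the minimum level only through libraries given LPS and are given as a description. In Met + LPS, S1pr1 was lower than in LPS by -0.53 (adjusted p = 2.5e-04 by limma), the chemokine receptor gene Ccr7 was higher by 1.05 (adjusted p = 0.00464 by limma), and the other 5 did not pass. Of all tested genes, 18% were lower and 14.5% higher in Met + LPS than in LPS. Arg1, a gene of alternative activation that KLF4 is known to induce, stayed at 0.152 TPM or less, and Retnla was listed at 0 in all libraries.

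The genes whose pattern over the 6 libraries was most like that of a KLF gene were found by the root mean square difference of centered log2(TPM + 1) among tested protein-coding genes, as a description without a test. Klf4 was closest to Bhlhe40, a transcriptional repressor of the clock and of immune genes, which was at 50.5 and 49.6 TPM in untreated BMDMs, 23.7 and 22.3 TPM in LPS and 78.1 and 68.7 TPM in Met + LPS (difference 0.083), and next to Tbc1d31 (0.085). Klf2 was closest to Lyn, a Src family kinase (0.020), and to Cd74 (0.023). Klf7 was closest to Nfkb2, an NF-kappaB subunit that was at 71.9 and 73.6, 634 and 676, and 538 and 547 TPM (0.037), and to Rnd3 (0.048). The nearest genes were Xkr8 and Sertad2 for Klf3, Cdk12 and Lims1 for Klf6, Tox2 and Phf3 for Klf9, Selenon and Acot11 for Klf10, Ubn1 and Mtrr for Klf11, Aldh6a1 and Prcp for Klf13, and Tfe3 and Sin3a for Klf16, with differences of 0.019 to 0.060.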

How the data were processed

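RNA-seq of poly-A RNA from 6 BMDM libraries was analysed. The authors aligned single-end reads to GRCm38 with STAR 2.6.1d, counted them per gene with featureCounts of Subread 1.6.3 and deposited TPM without pooling replicates. How the counts became TPM is not given in the sources used here. TPM times exon length (GENCODE M21, 54495 of 54532 genes matched) was a whole multiple of a common step, within 0.05, for 96.4% to 96.6% of values above 0, and these multiples were taken as reads. For Klf9 the transcript length in the file gave whole numbers. Replicates differed beyond counting noise (chi-square per degree of freedom 1.88 to 3.51).

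Genes that reached 1 TPM in 2 or more libraries entered the test, which was limma 3.58.1 under R 4.3.3 (log2(TPM + 1), trend, all 6 libraries in a single fit, 3 residual degrees of freedom), after a check on simulated reads. An exact permutation test of 2 against 2 libraries cannot go below p = 0.333. The authors' DESeq2 test was not repeated, and the reads recovered from TPM were tested only with voom. Members, lists and motifs were chosen with earlier results of these data known. Named genes are the 10 members, up to 3 genes of each list with the smallest adjusted p, and the 2 genes most like each member. Beyond this rule, genes of the KLF list at or near 0, Arg1, Retnla, Chil3, Hdac1 and Hdac2, Map2k5 and marker genes were named after their values were seen.

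As alternatives, the pseudocount was set to 0.1, the minimum was dropped or raised to 5 TPM, and the others were median-ratio scaling, the compared groups only, the replicate number as a block, no trend, voom on recovered reads, an adjusted p-value of 0.05 and leaving out each library, and, added after seeing the data, voom with median-ratio scaling. Python 3.11.15 with pandas 2.3.3 and matplotlib 3.10.9 made the tables and plots.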

Additional observations from a re-analysis of the deposited data

How the results depend on the processing

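Of 480 values of the 10 KLF genes in 3 comparisons under 16 alternatives, 439 kept their direction and their side of the threshold, 25 lost the call, 10 gained it and 6 changed direction. The 6 are Met + LPS vs. untreated values under median-ratio scaling and under voom with that scaling, which were 0.27 and 0.28 for Klf2, 0.23 and 0.25 for Klf9 and 0.04 and 0.04 for Klf13. With either scaling the members lower than untreated were 3 instead of 6 in LPS and 2 instead of 5 in Met + LPS. The members past the cut-off in LPS vs. untreated were 2 instead of 1 with a pseudocount of 0.1, with voom and with voom and median-ratio scaling. Of all tested genes, 12.5% passed this cut-off with voom, against 6.08% in the main fit. Beside Klf7, the added member was Klf11 with a pseudocount of 0.1 (-2.08) and with voom (-2.12). With voom and median-ratio scaling it was Klf3 (2.03), and Klf11 was at -1.62. The members lower in Met + LPS than in LPS were 1 instead of 2 without a filter, and 4 with voom, with voom and median-ratio scaling and at an adjusted p-value of 0.05. Beyond the alternatives' own construction, the cause was not tested. Some of the 480 values were fixed in advance. The adjusted p-value of 0.05 reused the main fit, so no call could be lost there. Leaving out a library of neither compared group could not change the fold change. Without the fits that left out a library, 275 of 300 values kept direction and side.

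Leaving out each library in turn, the members lower in Met + LPS than in LPS ranged from 1 to 2, those past the cut-off of 0.7 from 1 to 3, and those lower in Met + LPS than in untreated BMDMs from 3 to 5. Where a group was left with 1 library, it was assumed to vary like the others. With the replicate number as a block the counts were unchanged, at 4 higher and 6 lower for LPS, 3 and 2 for Met + LPS vs. LPS, and 4 and 5 for Met + LPS vs. untreated. Deviations of libraries with the same number correlated at 0, 0.01 and 0.03 over 12755 genes. These values cannot tell whether libraries of the same number shared a mouse, a culture or a preparation. With 37 and 50 reads in LPS, Klf11 has the least precise values.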
